A study of Mus musculus with 4 samples.

Results

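The genes described here are 9 transcripts of vascular mural cells, the smooth muscle cells and pericytes that wrap blood vessels. They are Acta2, Tagln, Myh11, Myl9, Cnn1 and Des of the contractile apparatus, and Rgs5, Abcc9 and Kcnj8, which are used as pericyte genes. They were taken by name from the rows of 4 single-cell count tables, in which all 9 were among the 26603 genes listed in every table. Each gene was compared between mural-like cells and mesenchymal progenitors within each library.

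The cells came from endosteal bone marrow of male Col2:Td mice on a B6SJL/F1 background, which carry Col2-Cre and a Rosa26 lsl-tdTomato reporter, so that cells with a history of Col2 promoter activity are labelled by tdTomato (Td). All groups share these alleles, and there was no treatment. The groups are 4 ages, each of them 1 library of pooled mice: 1 month (1M, 2 mice), 1.5 months (1.5M, 3 mice), 3 months (3M, 3 mice) and 16 months (16M, 3 mice). The periosteum was removed, the epiphyses were cut off and the central marrow was flushed out before the metaphyseal bone was digested, and cells were sorted as the brightest 1% for Td or as a Td+ peak. With 1 library per age there is no replicate. Differences between ages cannot be told apart from differences between libraries, and no p-value is given. Intervals cover 95% counting error only.

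Actin filaments made from α-smooth muscle actin (Acta2) and moved by smooth muscle myosin (Myh11 with its light chain Myl9) give vascular smooth muscle its contraction, and transgelin (Tagln) and calponin (Cnn1) bind those filaments. Desmin (Des) is an intermediate filament protein of muscle cells and many pericytes. Rgs5 shortens signalling by G protein-coupled receptors, and Kcnj8 and Abcc9 encode the pore (Kir6.1) and the regulatory subunit (SUR2) of the ATP-sensitive potassium channel of mural cells. Smooth muscle cells of arterioles are known for high contractile gene expression, pericytes of capillaries for Rgs5 and the potassium channel, and stromal progenitors can also express contractile genes.

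The 4 tables held 4516 to 9229 barcodes with 32672631 to 108227184 unique molecular identifiers (UMIs, counted transcript molecules) each. Kept cells, 24084 in all, had 200 to 6000 genes and no more than 5% of their UMIs from mitochondrial genes. The filter removed 109 barcodes at 1M, 292 at 1.5M, 336 at 3M and 3086 at 16M. Of these, 98, 291, 326 and 2987 were over the mitochondrial limit. The 16M library stood apart in keeping only 66.6% of its barcodes. Libraries shared between 1 and 61 barcodes in pairs. Levels are CPM (counts per 1000000), computed for each class and library from the summed UMIs of its cells. The chemistry counts 3′ ends, which does not scale with transcript length, so levels are compared between classes for 1 gene, and between genes only as ratios of UMIs set side by side across classes.

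Cell classes were rebuilt by clustering without the 9 genes and without the other contractile and pericyte genes counted below. There were 23 mural-like cells at 1M, 64 at 1.5M, 30 at 3M and 22 at 16M, which is 0.277%, 1.17%, 0.718% and 0.358% of the kept cells. The 12 mural markers used for naming were all detected in these cells in every library, and 9 to 12 of them were at least 4-fold above all other cells. Their summed level was 4053 to 7487 CPM in mural-like cells against 171 to 972 CPM in all other cells. Of 6 endothelial markers, 3 to 5 were detected in mural-like cells. Their summed level was 57.2 CPM against 73.9 CPM in the other cells at 1M, 39.0 against 23.7 at 1.5M, 52.7 against 236 at 3M and 123 against 95.7 at 16M, with 2 of 6 at least 4-fold above the other cells at 1.5M and at 16M. Markers of the progenitors themselves were also found. Those of EMP cells (4 or 5 of 7 detected, Cd34 at 0 in every library) summed to 797, 1278, 1808 and 900 CPM in mural-like cells against 593, 720, 724 and 450 CPM in the other cells, and those of LMP cells (2 to 6 of 6 detected) to 868, 1354, 886 and 448 CPM against 502, 1292, 678 and 297 CPM. Of 6 skeletal muscle markers, Tnnt3 was detected at 1.5M at 2.44 CPM, and all others were at 0 in every library. Neutrophil markers summed to 22585 CPM in mural-like cells at 1M and adipocyte-lineage markers to 14813 CPM at 16M, both below the 123057 and 26667 CPM of the other cells. The part of all these markers in the results was not tested. The tomato transcript of the reporter was at 5205, 5759, 7434 and 7649 CPM in mural-like cells of the 1M, 1.5M, 3M and 16M libraries, at 3392 to 4769 CPM in LMP-like cells and at 666 to 2687 CPM in neutrophil-like cells.

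Mesenchymal progenitors are the early (EMP-like) and late (LMP-like) mesenchymal progenitors, with names taken from the study. The study also names intermediate progenitors, which were not sought as a class here, so these classes may not match those of the study. There were 157, 115, 170 and 134 EMP-like cells and 663, 892, 472 and 243 LMP-like cells at 1M, 1.5M, 3M and 16M. A gene was called higher in a class when its CPM was at least 4-fold higher, the intervals of both levels did not overlap and 1 of the classes reached 10 CPM. A class with 0 UMIs was set at 3 counts for this. Because clusters were made from other genes of the same cells, these differences describe the classes and test nothing.

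The promoters of Acta2 and Myl9 are shown because only these genes, of the 7 with a promoter sequence here, held a CArG box, the DNA word bound by serum response factor, and both had counts in progenitors as well as in mural-like cells. The genes without a promoter sequence here were Tagln and Myh11. Sequences run from 250 bases before to 50 bases after the transcription start (RefSeq, GRCm38.p6), 5′ to 3′ on the strand of the gene, with CArG words in capitals. Acta2 lies on chromosome 19 (chr19:34255324-34255623, minus strand) and Myl9 on chromosome 2 (chr2:156775214-156775513, plus strand).
Acta2: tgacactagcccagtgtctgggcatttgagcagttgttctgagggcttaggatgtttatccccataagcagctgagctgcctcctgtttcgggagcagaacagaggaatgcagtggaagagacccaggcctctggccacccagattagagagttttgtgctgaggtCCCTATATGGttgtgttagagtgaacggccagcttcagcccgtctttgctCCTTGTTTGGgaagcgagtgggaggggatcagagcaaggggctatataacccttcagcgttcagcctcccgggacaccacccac
Myl9: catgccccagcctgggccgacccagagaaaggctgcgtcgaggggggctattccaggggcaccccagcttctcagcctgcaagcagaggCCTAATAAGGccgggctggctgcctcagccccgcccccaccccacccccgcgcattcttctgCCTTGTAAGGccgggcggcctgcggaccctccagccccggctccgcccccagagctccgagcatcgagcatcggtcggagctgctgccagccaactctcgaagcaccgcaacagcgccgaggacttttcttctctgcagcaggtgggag
The Acta2 words start at -84 and -34 from the transcription start, and each has 1 base in its core that departs from the strict A/T core. The Myl9 words start at -161 and -99, and the one at -161 is strict. TATAAA was searched beside CArG, and only CArG is reported. The search ran on the strand shown, and a CArG word reads as one on either strand. A strict word was in 1.63% of 32851 promoters of the same length, and a word with at most 1 other base in 9.98%. No such letters were in this window for Cnn1, Des, Rgs5, Abcc9 and Kcnj8. Kcnj8 and Abcc9 are neighbours on chromosome 6, on the minus strand, with 16247 bases between the annotated ends of Kcnj8 (142564837 to 142571614) and Abcc9 (142587862 to 142702315, GENCODE M21 on GRCm38).

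All 9 genes were higher in mural-like cells than in progenitors by this rule at 1M, 1.5M and 3M, and 8 of 9 were at 16M. Of all genes compared, 5.4% were higher in mural-like cells at 1M, 7% at 1.5M, 6.34% at 3M and 4.43% at 16M. The exception was Cnn1 at 16M, with 1 UMI in 22 mural-like cells and 0 in 377 progenitors, under the minimum of 10 CPM. With the 1M library clustered alone (91 mural-like cells), 6 of 9 were higher at 1M, and the share of all genes under that setting is not given. Without the cells of the highest doublet scores no mural-like cluster was left at 16M. The median log2 ratio of the genes compared was 4.81 at 1M (9 genes), 6.36 at 1.5M (9), 6.97 at 3M (9) and 5.54 at 16M (8), against 0.07, 0.24, 0.24 and 0.12 over all genes with UMIs in both classes.

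**Figure D1:**
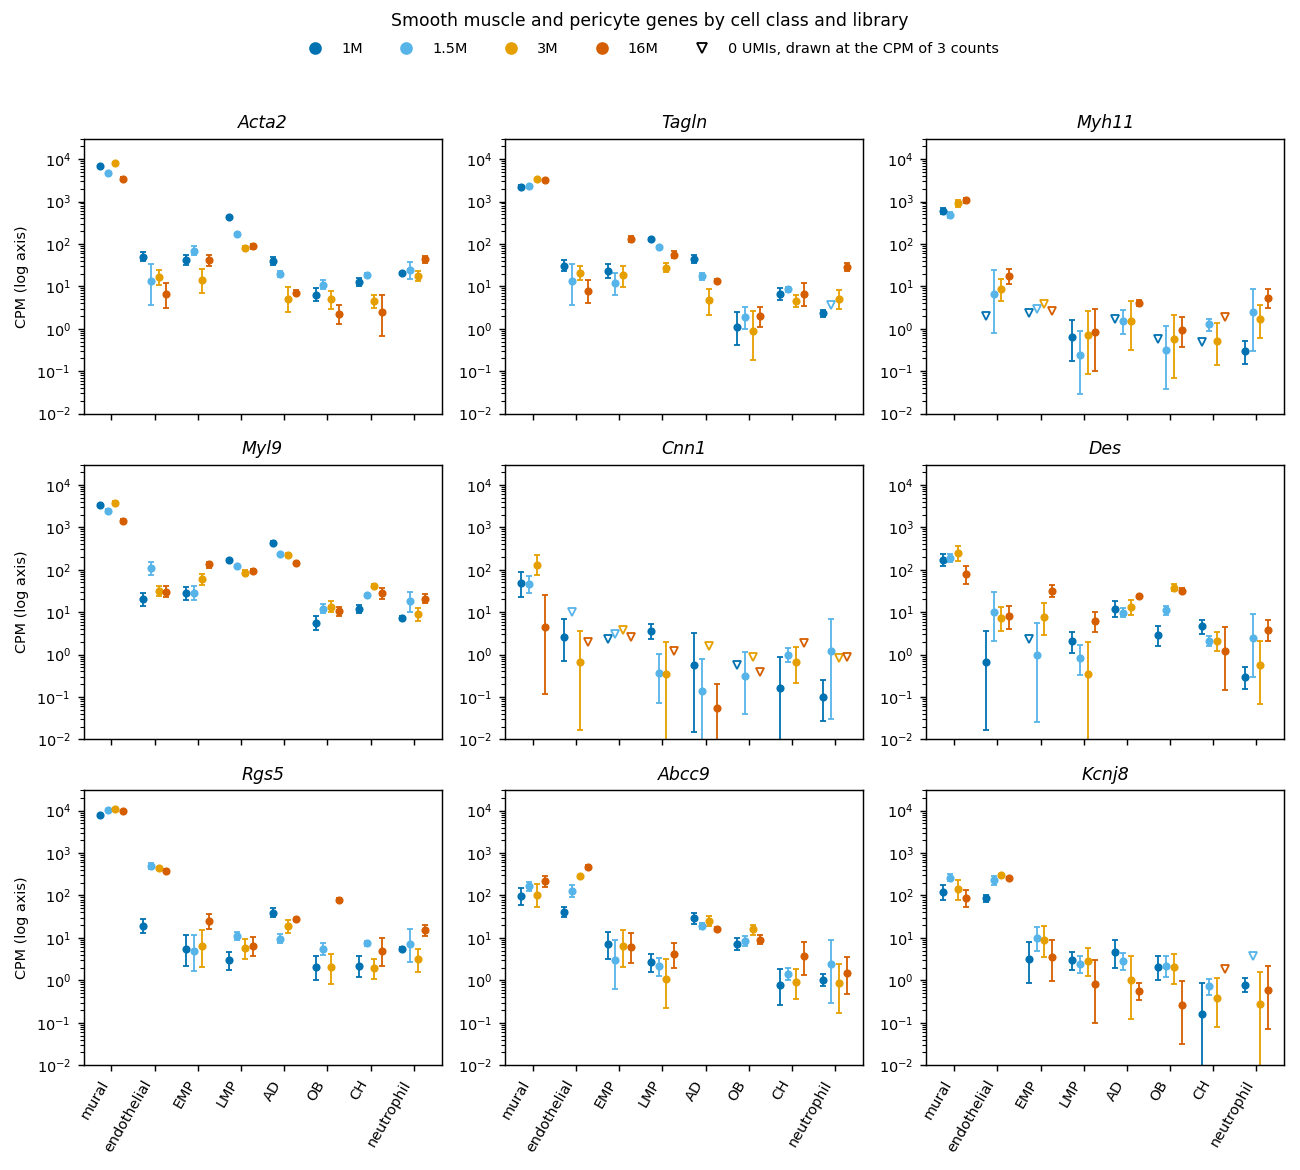
Level of each of the 9 genes (CPM, log axis) in 8 cell classes, with 1 point per library (1M, 1.5M, 3M, 16M) and 95% Poisson intervals, and open triangles for 0 UMIs drawn at the CPM of 3 counts. Acta2, Tagln and Myl9 have a second level in LMP-like cells, Myl9 also in AD-like cells, and Abcc9 and Kcnj8 are at 40.7 CPM or more in endothelial-like cells of every library.

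Acta2, the smooth muscle actin, was at 6765 CPM in mural-like cells at 1M, 4747 at 1.5M, 8013 at 3M and 3454 at 16M. In progenitors it was at 367, 160, 66.3 and 73.0 CPM. The ratio of mural-like cells to progenitors was therefore lowest at 1M (18.4, interval 17.3 to 19.7), 29.7 at 1.5M, 121 at 3M (105 to 140) and 47.3 at 16M. The level in progenitors differed more between libraries than that in mural-like cells.

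Tagln, the actin-binding transgelin, was at 2252, 2308, 3326 and 3212 CPM in mural-like cells of the 1M, 1.5M, 3M and 16M libraries. Progenitors held 112, 76.6, 25.7 and 80.5 CPM. Its ratios of 20.2, 30.1, 129 and 39.9 followed the order of the Acta2 ratios.

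Myl9, the regulatory light chain of smooth muscle myosin, was at 3325, 2481, 3818 and 1384 CPM in mural-like cells and at 148, 114, 79.2 and 106 CPM in progenitors. Its ratios were 22.5, 21.7, 48.2 and 13.1, and 13.1 (11.2 to 15.2) at 16M was the lowest of them.

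Myh11, the smooth muscle myosin heavy chain, was at 601, 481, 904 and 1074 CPM in mural-like cells. In all progenitors it gave 4, 2, 2 and 2 UMIs, which is 0.523, 0.214, 0.56 and 0.561 CPM. The ratio was 1150 (438 to 4285) at 1M and 1913 (524 to 15891) at 16M, with wide intervals because of the few progenitor UMIs. No UMI of Myh11 came from an EMP-like cell in any library. Myh11 and Acta2 thus differed in where else they were found, since Acta2 was shared with LMP-like cells and Myh11 was at 0.239 to 0.821 CPM there.

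Cnn1, the calponin of differentiated smooth muscle, was sparse, with 10, 19, 15 and 1 UMIs in mural-like cells (47.7, 46.3, 132 and 4.57 CPM). The ratios to progenitors were 15.9 (6.74 to 34.7) at 1M, 145 (42.5 to 763) at 1.5M, and 471 (72.4 to 19807) at 3M, where progenitors held 1 UMI. No more than 12 mural-like cells of a library carried a Cnn1 UMI.

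Des, the intermediate filament desmin, was at 172, 188, 246 and 77.7 CPM in mural-like cells. Progenitors had 1.7, 0.855 and 1.96 CPM in the 3 younger libraries and 14.3 CPM at 16M. The ratio was 101 at 1M, 220 at 1.5M, 125 at 3M and 5.43 (2.94 to 9.56) at 16M, so that the intervals of the younger libraries did not reach the one at 16M.

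Rgs5, the G protein signalling regulator, was at 7958, 10584, 10664 and 9586 CPM in mural-like cells. Progenitors held 3.4, 10.4, 5.88 and 12.3 CPM. The ratios were 2342 (1592 to 3596), 1021 (835 to 1261), 1815 (1182 to 2943) and 776 (576 to 1072). Among cells kept at the 5% limit its level in mural-like cells differed by at most 1.34-fold against 1M. With a limit of 10%, described below, it was at 7892, 9316, 5444 and 8815 CPM.

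Abcc9, the regulatory channel subunit, was at 95.4, 168, 105 and 219 CPM in mural-like cells, from 20, 69, 12 and 48 UMIs. Kcnj8, the channel pore, was at 119, 263, 140 and 86.8 CPM, from 25, 108, 16 and 19 UMIs. In progenitors Abcc9 was at 2.24 to 4.77 CPM and Kcnj8 at 1.68 to 4.2 CPM. The ratios were 28.1 to 75.0 for Abcc9 and 33.5 to 82.1 for Kcnj8, and the ratio of Abcc9 to Kcnj8 UMIs in mural-like cells was 0.8, 0.639, 0.75 and 2.53.

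**Figure D2:**
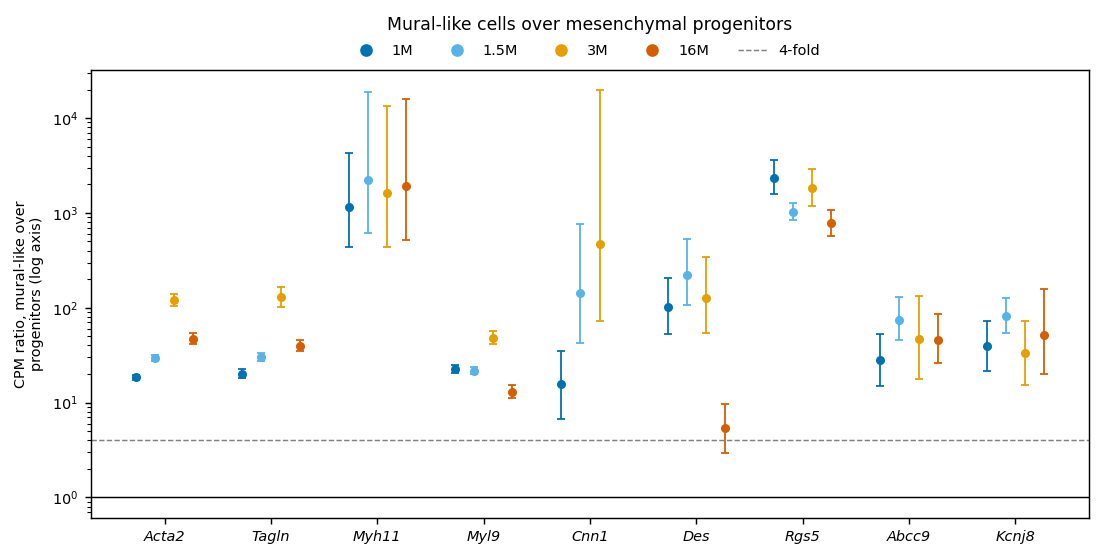
Ratio of the CPM in mural-like cells to that in mesenchymal progenitors for each gene (log axis), 1 point per library with its 95% interval, the dashed line at 4-fold. Cnn1 at 16M (1 UMI against 0) is not drawn. Myh11 and Rgs5 have the highest ratios in every library, all of them at 776 or more.

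Other genes of the contractile program were counted from a list of 20 genes. Of those that could be compared, 9 of 17 were higher in mural-like cells than in progenitors at 1M, 6 of 19 at 1.5M, 15 of 19 at 3M and 8 of 20 at 16M, and none was lower. Of all genes compared, 3.25%, 3.42%, 2.63% and 2.79% were lower in mural-like cells. The 4 with the most UMIs in mural-like cells included the tropomyosin Tpm2, with ratios of 7.69, 6, 20.6 and 7.45. The tropomyosin Tpm1 had ratios of 3.27, 3.82, 6.85 and 1.57, and caldesmon (Cald1) of 4.1, 2.82, 4.96 and 2.09. Myl6, a myosin light chain found in most cells, had ratios of 2.89, 2.63, 4.51 and 2.64. The median log2 ratio of the list was 1.39 to 2.78, below that of the 9 genes.

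From a list of 12 other pericyte genes, 9, 9, 8 and 8 of 12 were higher in mural-like cells at 1M, 1.5M, 3M and 16M, and none was called lower. Anpep was the only one with ratios below 1, at 0.781, 0.585, 0.871 and 0.238 (0.0285 to 0.875 at 16M, from 2 UMIs in mural-like cells). Tbx18 had ratios of 3.24, 3.93, 1.85 and 1.54 and was called in no library. The regulator Rgs4 had ratios of 50.1, 56.5, 32.1 and 23.2. Gucy1a1 and Gucy1b1, the subunits of the nitric oxide receptor guanylate cyclase, had ratios of 16.5 to 90.6 and of 31.4 to 220. Pdgfrb, the PDGF receptor of mural cells and many stromal cells, had ratios of 3.47, 3.65, 2.3 and 1.8 and reached 4-fold in no library.

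Mural-like cells differed among themselves. At 1M, Rgs5 ranged from 0 to 170 UMIs per cell with a median of 64, and Acta2 from 2 to 200 with a median of 58. At 1.5M the medians were 60.5 for Rgs5 and 14 for Acta2, at 3M 32.5 and 27.5, and at 16M 80 and 23. Rgs5 had a UMI in 22 of 23, 63 of 64, 27 of 30 and 21 of 22 cells, and Acta2 in 23, 58, 29 and 17 cells. Myh11 had a UMI in 21, 44, 26 and 22 cells, with medians of 2, 1, 3 and 9 UMIs. Both Abcc9 and Kcnj8 were found in the same cell in 9, 25, 5 and 8 cells, and Rgs5 without Myh11 in 2, 20, 4 and 0 cells. Median depth of the mural-like cells was 7757, 5639, 3647 and 7422 UMIs, and a cell without a UMI of a sparse gene cannot be said to lack it.

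Across the 139 mural-like cells, with library means removed, Acta2, Tagln, Myl9 and Myh11 varied together. On the log2(CPM + 100) scale, r was 0.84 for Acta2 with Tagln, 0.79 for Acta2 with Myl9, 0.74 for Tagln with Myl9 and 0.49 for Acta2 with Myh11. Cnn1 gave 0.34 with Acta2 and 0.19 with Myh11. Des gave -0.15 with Acta2, -0.14 with Tagln, -0.11 with Myl9 and -0.08 with Myh11. The channel subunits Abcc9 and Kcnj8 gave 0.47. Between Acta2, Tagln, Myl9 or Myh11 and the channel subunits r was negative, from -0.32 for Myh11 with Abcc9 to -0.50 for Tagln with Abcc9. Cnn1 gave -0.14 with Abcc9 and -0.24 with Kcnj8, while Des gave 0.05 and 0.11. Rgs5 gave -0.34 with Acta2 and 0.21 with Kcnj8. These are descriptions over cells that share libraries and differ in depth.

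Mural-like cells were then placed on a smooth muscle or a pericyte side by 8 genes known from smooth muscle and 6 from pericytes, none of them among the 9. Mustn1 (1186 UMIs in mural-like cells over all libraries) led the smooth muscle genes and Ndufa4l2 (1050) the pericyte genes, of which Atp13a5 gave 0. Higd1b, Ndufa4l2, Cox4i2, Sncg, Mustn1 and Pln were also among the markers that named the mural-like cells. The smooth muscle side held 9, 24, 19 and 9 cells and the pericyte side 14, 40, 10 and 12 cells at 1M, 1.5M, 3M and 16M, and 1 to 9 cells per library lay within 2 UMIs of the border. Of the 9 genes, 1, 1, 0 and 2 were called higher on the smooth muscle side and 2, 2, 0 and 1 on the pericyte side. Of all genes, 0.439%, 0.531%, 0.378% and 0.456% were called on the smooth muscle side and 0.253%, 0.339%, 0.298% and 0.488% on the pericyte side.

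Tagln was at 3799 CPM on the smooth muscle side and 1351 on the pericyte side at 1M, 4272 and 1140 at 1.5M, 4393 and 1688 at 3M, and 7295 and 395 at 16M. The ratios were 2.81, 3.75, 2.60 and 18.5 (13.8 to 25.2). Acta2 ratios were 1.76, 3.8, 2.31 and 6.45 (5.34 to 7.85), Myh11 ratios 2.45 to 3.66 and Myl9 ratios 1.68 to 3.24. Cnn1 gave 9 against 1 UMIs at 1M, 15 against 4 at 1.5M and 15 against 0 at 3M.

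Kcnj8 went the other way, at 13.0 against 181 CPM at 1M and 45.8 against 393 CPM at 1.5M. Its ratios of smooth muscle to pericyte side were 0.0716, 0.117, 0.279 and 0.163, with intervals below 1 in all 4 libraries. Abcc9 ratios were 0.0904, 0.221, 0.307 and 0.249, and the interval at 3M (0.0676 to 1.15) included 1. Rgs5 was higher on the pericyte side by less, with ratios of 0.61, 0.743, 0.306 and 0.558, and it stayed at 5560 to 8695 CPM on the smooth muscle side. Des had ratios of 2.40, 1.07, 1.23 and 0.462, and its interval lay above 1 at 1M only (1.18 to 5.01).

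Many mural-like cells lay above the mitochondrial limit of 5%. For both older libraries the study gives more cells than this limit leaves, so the limit it used there is uncertain. With a limit of 10% there were 24, 78, 70 and 169 mural-like cells at 1M, 1.5M, 3M and 16M, of which 1, 15, 40 and 147 had over 5%. At 16M the barcodes outside the filter held 27.4% of all UMIs of the library but 89.3% of its Acta2 UMIs, 74.5% of its Rgs5 UMIs and 70.8% of its Kcnj8 UMIs. At 3M they held 5.08% of all UMIs, 64.6% of the Acta2 UMIs and 7.97% of the Rgs5 UMIs.

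The 40 mural-like cells over 5% at 3M had 16490 CPM of Acta2, 6750 of Tagln, 2270 of Myh11 and 637 of Cnn1, all above the kept cells. Their Rgs5 was at 989 CPM against 10664 in the kept cells, with 1 UMI of Abcc9 and 0 of Kcnj8. The 15 cells at 1.5M were alike, with 15102 CPM of Acta2, 2026 of Myh11 and 1458 of Rgs5, and 0 UMIs of Abcc9 and Kcnj8. The 147 cells at 16M differed from these in holding 8665 CPM of Rgs5, 225 of Abcc9 and 112 of Kcnj8, beside 7993 CPM of Acta2 and 7591 of Tagln. What sets the mitochondrial share of these cells was not tested.

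**Figure D3:**
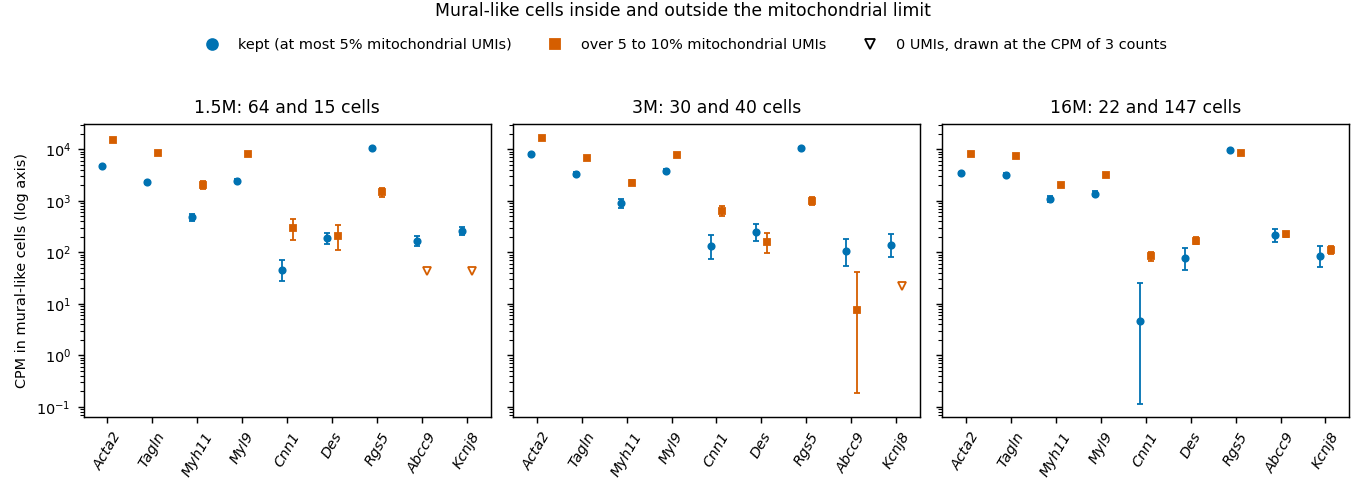
Level of each gene (CPM, log axis) in mural-like cells kept at 5% mitochondrial UMIs (circles) and in those between 5 and 10% (squares), with 95% Poisson intervals and open triangles for 0 UMIs at the CPM of 3 counts, for the 1.5M, 3M and 16M libraries. The squares lie above the circles for Acta2, Tagln, Myh11, Myl9 and Cnn1 in all 3 libraries, and below for Rgs5, Abcc9 and Kcnj8 at 1.5M and 3M.

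The levels at 16M depend on this limit. With 10%, mural-like cells at 16M were at 7255 CPM of Acta2, 6879 of Tagln, 2861 of Myl9 and 72.02 of Cnn1, against 3454, 3212, 1384 and 4.57 with 5%, while Rgs5 (8815) and Abcc9 (224) moved little. At 3M, Acta2 went from 8013 to 12586 CPM and Rgs5 from 10664 to 5444. A comparison of mural-like cells across ages therefore changes with the filter, and Acta2 and Cnn1 at 16M, below 1M among kept cells, were above 1M with 10% (7255 against 6875 CPM and 72.02 against 46.5 CPM). Both stayed below 3M (12586 and 404 CPM).

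The sides with the 10% limit held 10, 38, 59 and 103 cells on the smooth muscle side and 14, 40, 10 and 64 on the pericyte side. At 16M Acta2 was then at 10727 against 1904 CPM (ratio 5.63), Tagln at 10566 against 1201 (8.80) and Myl9 at 4096 against 944 (4.34). Cnn1 gave 97 UMIs on the smooth muscle side and 0 on the pericyte side. Kcnj8 ratios were 0.0667, 0.0809, 0.0946 and 0.0794 and Abcc9 ratios 0.0842, 0.155, 0.130 and 0.140, all called higher on the pericyte side, as were 0.283%, 0.565%, 1.4% and 2.11% of all genes. Des at 16M was at 94.4 against 245 CPM (0.385, interval 0.286 to 0.515), while at 1M it was higher on the smooth muscle side (2.24, 1.10 to 4.67).

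**Figure D4:**
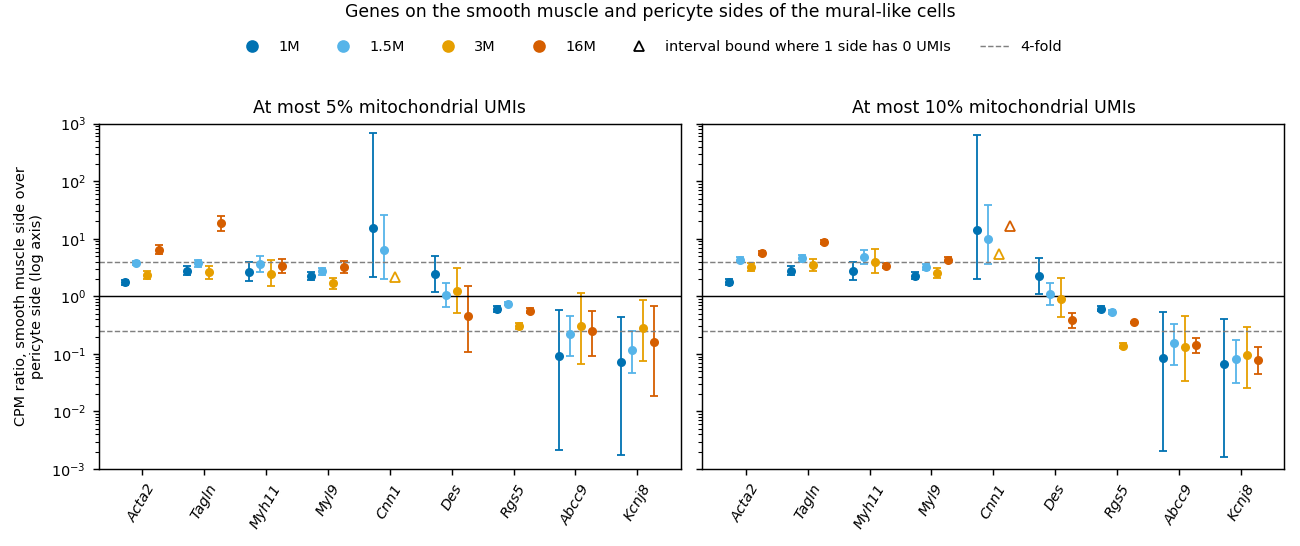
Ratio of the CPM on the smooth muscle side to that on the pericyte side of the mural-like cells (log axis), 1 point per library with 95% intervals, at mitochondrial limits of 5% (left) and 10% (right), with dashed lines at 4-fold either way and triangles at the bound of the interval where 1 side has 0 UMIs. Cnn1 at 16M with the 5% limit (1 UMI against 0) is not drawn. The points drawn for Acta2, Tagln, Myh11, Myl9 and Cnn1 lie above 1, and Rgs5, Abcc9 and Kcnj8 below 1.

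In progenitors, Acta2, Tagln and Myl9 were compared with neutrophil-like cells of the same library, which are not known for these genes. Acta2 was lower in osteoblast-like than in neutrophil-like cells in every library (6.39, 11.0, 4.99 and 2.26 CPM in osteoblast-like cells). Neutrophil-like cells are therefore a comparison class and not a measure of free RNA. Of the 9 genes, only 3, 4, 3 and 5 reached the 10 CPM minimum in either class at 1M, 1.5M, 3M and 16M. By the same 4-fold rule 3 of 9 genes were higher at 1M, 3 at 1.5M, 2 at 3M and 1 at 16M, where 24%, 9.33%, 34.2% and 26.1% of all genes were higher. Myl9 was called in all 4 libraries, with 7.34, 18.3, 9.02 and 20.8 CPM in neutrophil-like cells. Tagln was at 2.32, 0, 5.07 and 28.5 CPM there and was called at 1M, 1.5M and 3M. Acta2 was at 20.6, 24.4, 17.8 and 43.1 CPM there and was called at 1M and 1.5M, with ratios of 3.74 at 3M and 1.69 (1.38 to 2.09) at 16M. At 1.5M the neutrophil-like cells were only 52, and none of the 3 genes was called there against the 138 neutrophil-like cells found with that library clustered alone.

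Taken by class, 3, 3, 3 and 1 of the 9 genes were called in LMP-like cells over neutrophil-like cells at 1M, 1.5M, 3M and 16M, where 23.7%, 8.91%, 33.8% and 25.4% of all genes were. In EMP-like cells 1, 0, 1 and 3 were called, where 23.6%, 9.6%, 35.8% and 28.4% of all genes were, and the 3 at 16M were Tagln, Myl9 and Des.

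Acta2 was at 431, 170, 80.7 and 87.8 CPM in LMP-like and at 42.9, 69.9, 14.2 and 40.8 CPM in EMP-like cells. The ratio was 10.0 (7.68 to 13.4) at 1M, 2.44 at 1.5M, 5.68 at 3M and 2.15 (1.56 to 3.03) at 16M, above 1 in every library. The size of this ratio depends on the clustering. With the libraries clustered alone it was 18.3 at 1M and 6.84 at 1.5M, with the 9 genes kept in the clustering 5.58 at 1.5M, with the 10% limit 3.66 at 3M, and without the highest doublet scores 17.3 at 3M, where EMP-like cells held 1 UMI. At 1.5M, 1 EMP-like cell held 34 of the 70 UMIs. In all, 3, 2, 1 and 0 of the 9 genes were called higher in LMP-like cells, where 2.75%, 2.87%, 1.17% and 2.18% of all genes were.

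Tagln was at 129, 84.4, 27.9 and 56.2 CPM in LMP-like and at 23.0, 11.99, 18.1 and 133 CPM in EMP-like cells. The ratio was 5.62 at 1M, 7.04 at 1.5M, 1.54 (0.866 to 2.95) at 3M and 0.423 (0.333 to 0.536) at 16M. At 16M, 94.7% of the Tagln UMIs of EMP-like cells came from the highest 10% of these cells, and 1 cell held 47 of 150. With the 10% mitochondrial limit the ratio at 16M was 1.39 (1.10 to 1.75), so its direction rests on the filter.

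Myl9 was at 171, 124, 84.7 and 93.6 CPM in LMP-like and at 27.8, 29.0, 59.4 and 133 CPM in EMP-like cells. Its ratios were 6.17, 4.29, 1.43 and 0.703 (0.570 to 0.870). At 16M it had a UMI in 65 of 134 EMP-like cells, and the highest 10% held 44.0% of the UMIs, so it was spread more widely than Tagln. With the 10% limit the ratio at 16M was 0.665, and at 3M it was 0.896 (0.660 to 1.24). The EMP-like cells at 3M were made up of a cluster of 48 cells led by Cxcl9 and Fbln1, at 226 CPM of Myl9 and 81.2 CPM of Tagln, and one of 122 cells led by Clec3b and Prg4, at 11.6 CPM of Myl9 and 0 of Tagln. The LMP-like level of Myl9 lay between them, and without the highest doublet scores (57 EMP-like cells) the ratio was 4.37. Cd74, H2-Aa and H2-Eb1 were also among the leading genes of the 122 cells, as they were in the macrophage-like cluster of that library. Des was at 0, 0.999, 7.75 and 31.9 CPM in EMP-like cells and was the only gene called lower in LMP-like cells, at 16M (ratio 0.193). Of all genes, 2.87%, 3.23%, 3.29% and 2.24% were called lower there at 1M, 1.5M, 3M and 16M.

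Within LMP-like cells Acta2 was concentrated in a part of the cells. It had a UMI in 254 of 663 cells at 1M (38.3%), 259 of 892 at 1.5M (29.0%), 57 of 472 at 3M (12.1%) and 39 of 243 at 16M (16.0%). The highest 10% of the cells held 77.0%, 82.4%, 95.6% and 92.99% of the UMIs, and 74, 43, 6 and 7 cells had 10 or more, up to 141 in 1 cell at 1M. After thinning to 3000 UMIs per cell the shares were 26.5%, 18.5%, 9.56% and 8.68%, against 6.15%, 9.62%, 3.04% and 7.59% of neutrophil-like cells. The share at 16M was close to that of neutrophil-like cells, and no difference in expression is read from it. For Myl9 the thinned shares were 27.9%, 23.1%, 17.6% and 20.7%, against 1.70%, 3.85%, 1.64% and 3.45% of neutrophil-like cells.

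**Figure D5:**
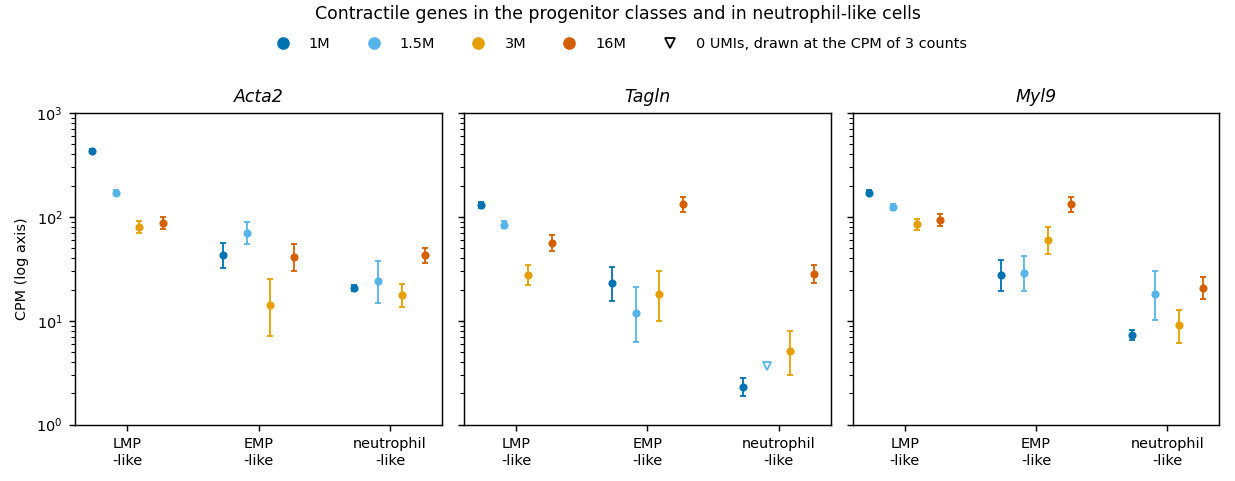
Levels of Acta2, Tagln and Myl9 (CPM, log axis) in LMP-like, EMP-like and neutrophil-like cells, 1 point per library with 95% Poisson intervals and an open triangle for 0 UMIs at the CPM of 3 counts. In LMP-like cells the 1M point is the highest for all 3 genes, and in EMP-like cells the 16M point is the highest for Tagln and Myl9.

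Against 1M, Acta2 in LMP-like cells was at 0.396 of its level at 1.5M, 0.187 at 3M and 0.204 at 16M. Tagln was at 0.653, 0.216 and 0.435, and Myl9 at 0.725, 0.494 and 0.546. The LMP-like class was not made up alike in all libraries. At 1M, 1.5M and 3M it joined a cluster led by Nov and Sfrp2, at 193, 62.4 and 16.9 CPM of Acta2, and one led by Postn, Ostn and Tnn, at 720, 245 and 132 CPM. At 16M it was 1 cluster, with Fmod, Ptn, Postn and Tnn among its leading genes, at 87.8 CPM. The mural-like cells did not share this order, as Acta2 was at 1.18 of its 1M level at 3M and Tagln at 1.48. These are single libraries, and age and library cannot be told apart.

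The 3 genes were also higher in LMP-like than in osteoblast-like (OB-like) cells in every library. Acta2 was at 6.39, 11.0, 4.99 and 2.26 CPM in OB-like cells, with ratios of 67.4, 15.5, 16.2 and 38.9. Tagln ratios were 115, 44.0, 31.6 and 28.2, and Myl9 ratios 30.4, 10.2, 6.27 and 8.92. Of all genes, 7.74%, 8%, 9.18% and 13.4% were higher in LMP-like cells. Des went the other way, at 2.82, 11.0, 37.9 and 32.1 CPM in OB-like and 2.03, 0.838, 0.357 and 6.16 CPM in LMP-like cells, and was called lower in LMP-like cells at 1.5M, 3M and 16M. Of all genes, 1.44%, 1.55%, 2.16% and 1.85% were lower in LMP-like cells. Abcc9 at 3M and Rgs5 at 16M were also called lower.

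In adipocyte-lineage (AD-like) cells the contractile genes separated. Acta2 was at 40.01, 19.99, 5.17 and 7.11 CPM, lower than in LMP-like cells in every library, with ratios of 0.064 to 0.117. Myl9 was at 433, 230, 224 and 146 CPM, above LMP-like cells by 1.56-fold to 2.64-fold, which did not reach 4-fold. Abcc9 was at 29.0, 19.2, 25.3 and 16.5 CPM and was called higher than in LMP-like cells in every library, with ratios of 10.9, 8.89, 23.6 and 4.01. Rgs5 was at 39.4, 9.65, 18.6 and 27.3 CPM in AD-like cells, against 2.97, 11.0, 5.72 and 6.57 CPM in LMP-like cells. Des was at 12.2, 9.65, 12.9 and 23.5 CPM in AD-like cells. Of the 9 genes, 3, 1, 2 and 2 were called higher in AD-like than in LMP-like cells. Of all genes, 5.46%, 6.41%, 6.15% and 3.96% were higher in AD-like cells. The other way, 1, 2, 2 and 2 of the 9 genes were called lower, for which no share of all genes is given here. Kcnj8 was at 4.64, 2.8, 1.03 and 0.558 CPM in AD-like cells, so that the channel subunits were not found together there as they were in mural-like cells. The gene 5330439B14Rik lies inside Abcc9 on the other strand, and how reads were counted by strand is not given in the sources used here.

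Endothelial-like cells (170, 32, 247 and 121 cells) held both channel genes. Abcc9 was at 40.7, 128, 284 and 475 CPM and Kcnj8 at 85.4, 233, 299 and 252 CPM. The ratio of mural-like to endothelial-like cells was 2.34 (1.34 to 3.93), 1.31, 0.371 (0.190 to 0.655) and 0.461 (0.337 to 0.618) for Abcc9, and 1.40, 1.13, 0.470 and 0.345 for Kcnj8. Neither was called higher in mural-like cells in any library. The other 7 genes were called in the 3 younger libraries and 6 of them at 16M, with Cnn1 too sparse there. Of all genes, 5.26%, 2.37%, 4.79% and 4.34% were higher in mural-like cells.

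For Rgs5 the ratio of mural-like to endothelial-like cells was 418, 21.6, 24.6 and 25.2. Rgs5 was at 19.0, 489, 433 and 381 CPM in endothelial-like cells. These UMIs came from few cells: 22 of 121 cells carried a Rgs5 UMI at 16M, 1 cell held 142 of the 576 UMIs, and the highest 10% of the cells held 98.3%. Abcc9 and Kcnj8 were spread over 76 and 65 of the 121 cells, and over 154 and 163 of 247 at 3M, with 43.9% and 49.6% of the UMIs in the highest 10% at 16M. The ratio of Rgs5 to Kcnj8 UMIs was 66.7, 40.2, 75.9 and 110 in mural-like cells and 0.223, 2.10, 1.45 and 1.51 in endothelial-like cells, and that of Acta2 to Rgs5 was 0.360 to 0.850 in mural-like cells and 0.0174 to 0.0382 in endothelial-like cells at 1.5M, 3M and 16M. At 1M it was higher in endothelial-like cells, at 2.66 from 77 and 29 UMIs, against 0.850 in mural-like cells. Summed over each class, these proportions differed between endothelial-like and mural-like cells in every library. The mural marker Higd1b was at 1.31, 20.2, 18.6 and 4.63 CPM in endothelial-like cells. The part of mural cells or doublets in the endothelial-like levels was not tested.

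Besides the AD-like cells described above, Rgs5 was found in some other cells. In OB-like cells it was at 2.07, 5.59 and 2.06 CPM in the younger libraries and at 80.3 CPM at 16M, from 605 UMIs in 131 of 427 cells, while Acta2 was at 2.26 CPM there. This class at 16M joined a cluster of 237 cells with a median of 1171 UMIs and one of 190 cells with a median of 26314 UMIs. The share of cells with a Rgs5 UMI thus mixes unlike depths. In osteocyte-like (Ocy-like) cells at 16M Rgs5 was at 254 CPM, but 162 of 170 UMIs came from 1 of 52 cells. An unnamed mesenchymal cluster led by Prg4 (22 cells at 1M and 10 at 1.5M) held 911 and 242 CPM of Rgs5, in 20 of 22 and 8 of 10 cells, with 9.25 and 0 CPM of Acta2 and 0 of Abcc9.

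Other unnamed mesenchymal clusters carried contractile genes or Abcc9. A cluster of 18 cells at 1M led by the tendon genes Tnmd, Thbs4 and Kera was at 636 CPM of Acta2, 597 of Tagln and 434 of Myl9, from 10, 9 and 13 cells, with 0 UMIs of Myh11 and Rgs5. The 18 cells of the same cluster at 1.5M were at 22.3, 7.43 and 22.3 CPM. A larger unnamed cluster of the joined libraries led by Kcnk2, Slc20a2 and Limch1 (208 cells at 1M and 330 at 1.5M) was at 203 and 72.02 CPM of Acta2, at 380 and 287 CPM of Myl9 and at 71.4 and 66.3 CPM of Abcc9. A separate unnamed cluster of 222 cells at 3M led by Mmp9 and Spp1 was at 3.1 CPM of Acta2, 123 of Myl9 and 50.2 of Abcc9. An unnamed cluster of 372 cells at 16M led by Spp1 and Mmp13 was at 41.3 CPM of Abcc9 and 4.86 of Acta2.

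The genes with the pattern most like each of the 9 were sought over 59 pairs of class and library with at least 20 cells, by Pearson's r of log2(CPM + 10). Acta2 was closest to Tagln (r = 0.955) and, outside the 9, to Aoc3 (0.909), Cap2 and Rem1. Myh11 was closest to Olfr558 (0.986), Kcnk3 (0.982) and Slc38a11 (0.981). Cnn1 was closest to Actg2 (0.970), the enteric smooth muscle actin, Pdlim3 and Gm13861. Rgs5 was closest to Sncg (0.902), Itga7 and Higd1b.

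Tagln was closest to Rem1 (0.926), Aoc3 and Nexn, Myl9 to Gjc1 (0.927), Heyl and Tpm2, and Des to Ajuba (0.859), Gucy1b1 and Lin7a. Kcnj8 was closest to the endothelial adhesion gene Esam (0.954), Mcam and Tcf15, and Abcc9 to Adamts9 (0.880), Rgs4 and Tcf15. The r of Abcc9 with Kcnj8 was 0.875. These are descriptions over points that share libraries and depth, and Aoc3, Heyl, Sncg, Higd1b and Mcam were among the markers that named the mural-like cells.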

How the data were processed

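Single-cell RNA-seq libraries (10x Chromium, 1 per age) were made by the authors, who deposited raw UMI counts per gene and barcode without normalization. The submitters' processing notes name Cell Ranger 3.0.2, mm10 and Seurat 2. All 4 tables were read, and every value column was used.

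Cells were filtered at the limits stated in the study's methods, which leave fewer cells at 3 and 16 months than the study gives. Clustering used Seurat 5.3.0 (R 4.3.3, Matrix 1.6.5) with 2000 variable genes, 30 components and a resolution of 0.8. The 1 and 1.5 month libraries were joined by canonical correlation, the other libraries were clustered alone, and mesenchymal clusters were clustered again. The 9 genes and both lists were removed from the variable genes. The naming markers were not removed, so naming was not independent of the clustering. A cluster was named with at least 3 markers raised 2-fold, found in 10% of its cells. Clusters with markers of several lineages (494 cells) were left out of the classes. Doublets were scored with Scrublet (scanpy 1.11.5), which called 443 of 24084 cells. None was removed in the values reported, and removal of the 8% with the highest scores was an alternative.

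CPM were computed from summed counts, with exact Poisson intervals for levels, exact conditional intervals for ratios and exact binomial intervals for shares (Python 3.11.15, scipy 1.17.1). Rule and intervals were tested on simulated data. The 9 genes and the lists were chosen with earlier results of these data known. The genes named beside the 9 are the 3 most alike to each and the 4 of each list with the most UMIs in mural-like cells. Anpep and Tbx18 were named after their values were seen. Leading genes of unnamed clusters were named after their values were seen. There were 15 alternatives, with others added after seeing the data. No p-value was computed because each age is 1 library.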

Additional observations from a re-analysis of the deposited data

Results flagged for a closer look

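Differences between libraries were not tested, since each age is 1 library. The ratio of LMP-like to EMP-like cells differed in direction between libraries for Tagln, which was at 5.62 at 1M and 7.04 at 1.5M but 0.423 at 16M. For Myl9 the ratio was 6.17 at 1M, 4.29 at 1.5M and 1.43 at 3M but 0.703 at 16M. The ratio of mural-like to endothelial-like cells for Abcc9 was 2.34 at 1M but 0.371 at 3M and 0.461 at 16M, with intervals on either side of 1.

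Barcodes outside the filter on genes and mitochondrial UMIs held mural genes above the level of the kept cells. At 1.5M these barcodes were at 737 CPM of Acta2, 423 of Tagln, 95.8 of Myh11, 470 of Myl9 and 17.2 of Cnn1. At 3M they were at 1550 CPM of Acta2, 647 of Tagln, 215 of Myh11, 770 of Myl9 and 54.9 of Cnn1. At 16M they were at 496 CPM of Acta2, 461 of Tagln, 137 of Myh11 and 5.17 of Cnn1. The pericyte genes stood out there at 16M as well, with 561 CPM of Rgs5, 121 of Abcc9 and 41.7 of Kcnj8. The endothelial gene Pecam1 was at 81.2 CPM outside and 23.8 CPM inside the filter at 16M, and the part of endothelial cells in these Abcc9 and Kcnj8 levels was not tested.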

How the results depend on the processing

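Cells above 5% mitochondrial UMIs, small classes (22 to 64 mural-like cells, 52 neutrophil-like cells at 1.5M) and single libraries limit these results. The count of the 9 genes higher in mural-like cells than in progenitors stayed within 1.5 times of the value reported wherever there was a value, and was lowest at 6 at 1M with the 1 and 1.5 month libraries clustered alone. The counts higher in progenitors than in neutrophil-like cells moved to 1 at 1.5M and 2 at 16M with the 10% mitochondrial limit, to 0 at 1.5M (against 1 neutrophil-like cell) and 3 at 16M without the highest doublet scores, to 0 at 1.5M with libraries alone, to 2 at 16M with the mean over cells, to 1 at 3M and 0 at 16M with size factors, to 1, 0, 1 and 3 with EMP-like cells alone, to 3 at 16M at 2-fold, to 1, 1 and 0 at 1.5M, 3M and 16M at 8-fold, to 5 at 1M without a minimum, and to 2 at 16M against all hematopoietic cells, an alternative chosen after seeing the data. The counts higher on the smooth muscle side moved to 4, 1 and 4 at 1.5M, 3M and 16M with the 10% limit, to 4 at 1.5M without the highest doublet scores, to 6 at 1M with libraries alone, to 0 at 1M and 1 at 16M after thinning, and to 4 at 1.5M with sides at least 3 UMIs apart. The cause of these moves was not tested. All these counts are given without the share of all genes under the same setting. The moves are therefore not read as results about the 9 genes. Without the highest doublet scores no mural-like cluster was left at 16M, so there is no value there. Of the ratios of LMP-like to EMP-like cells, recomputed under the other clusterings after seeing the data, Tagln at 16M reversed to 1.39 and Myl9 at 3M to 0.896, both with the 10% limit. Of 366 values of single-gene ratios of mural-like cells to progenitors, 268 moved by less than their interval, 98 by more and 0 reversed. No paired analysis was possible because each age is 1 library.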
